A study of Homo sapiens with 12 samples.

Results

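The serine synthesis and one-carbon pathway was followed here through 9 genes of the 28008 in each count table, taken by symbol: PHGDH, PSAT1 and PSPH of serine synthesis, SHMT1 and MTHFD1 of the cytosolic folate pathway, and SHMT2, MTHFD2, MTHFD1L and ALDH1L2 of the mitochondrial folate pathway. The RNA came from QGP-1 and BON-1 cells, which are established lines of human pancreatic neuroendocrine tumors (pNETs). All 12 libraries carried tet-MUC1shRNA, a hairpin against the MUC1 transcript whose production doxycycline (DOX) turns on. In each line 3 libraries were from cells given vehicle (0.1% DMSO) and 3 from cells given 500 ng/mL DOX for 7 days. The lines were kept in different media, so that line and medium cannot be told apart. None of the 12 libraries carried a control hairpin, and an effect of DOX itself and an effect of MUC1 silencing cannot be told apart. A QGP-1 library held between 38224144 and 50525926 counts, and a BON-1 library between 15981954 and 28484324. The replicates are cultures of 1 hairpin in each line, and the p-values measure the spread between these cultures.

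Cells make serine from a glycolytic intermediate in successive steps by PHGDH, PSAT1 and PSPH. SHMT enzymes then split serine into glycine and a one-carbon unit carried by tetrahydrofolate, and MTHFD enzymes change its oxidation state in the cytosol and in mitochondria. The units feed purine, thymidylate and methionine synthesis, and many tumors make or import large amounts of serine to supply them.

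The hairpin target was checked first. MUC1 was at 7.37, 5.95 and 5.79 normalized CPM (counts scaled to a common library total) in the QGP-1 vehicle libraries and at 0.722, 1.07 and 0.762 CPM with DOX. In BON-1 cells it was at 20.2, 20.1 and 15.0 CPM with vehicle and at 1.42, 2.60 and 3.93 CPM with DOX. The groups did not overlap in either line, and MUC1 fell by 2.91 on the log2 scale in QGP-1 cells (SE 0.23, adjusted p = 8.24e-07) and fell by 2.79 in BON-1 cells (SE 0.22, adjusted p = 6.51e-11, edgeR). Of 7 neuroendocrine markers, all had counts in BON-1 cells and 6 in QGP-1 cells, where NEUROD1 had 0 counts in each of the 6 libraries. CHGA, the granule protein chromogranin A, averaged 151 CPM in QGP-1 and 7875 CPM in BON-1 vehicle libraries.

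All 9 genes passed the filter on low counts in both lines. In QGP-1 cells 7 of the 9 fell with DOX, namely PHGDH, PSAT1, PSPH, SHMT1, MTHFD1, SHMT2 and ALDH1L2, while MTHFD1L rose and MTHFD2 did not pass the test. The 7 became 4 without vehicle replicate 1 or without vehicle replicate 2, and SHMT2 (adjusted p = 0.0615) and ALDH1L2 (0.095) lost their calls with both lines in 1 fit. In BON-1 cells 6 fell, namely PHGDH, PSAT1, SHMT1, MTHFD1, SHMT2 and MTHFD2, and the other 3 did not pass. No member rose in BON-1 cells by edgeR, at an unadjusted p below 0.05 or by DESeq2 (0 of 9 each). The background was a fall of 17.7% and a rise of 17.3% of the 15089 genes tested in QGP-1 cells, and of 18.3% and 17% of the 14625 tested in BON-1 cells, at an adjusted p below 0.05. PHGDH, PSAT1, SHMT1, MTHFD1 and SHMT2 fell in both lines, and no member rose in both. The share of all genes that fell in both lines is not given here, so this overlap has no background beside it. Of the 6 QGP-1 fits that left out 1 library, SHMT1 was called in 3 and SHMT2 in 2. The median log2 fold change of the 9 genes was -0.31 in QGP-1 and -0.33 in BON-1 cells, beside -0.01 over all genes tested in each line. The members were chosen with earlier results of these data known. Their counts and medians therefore describe these 9 genes and are no test of the pathway. On the deposited TPM scale, analysed with limma as log2(TPM + 1), the median of all genes moved to 0.59 in QGP-1 cells and PSAT1, PSPH, SHMT1, MTHFD1 and SHMT2 took a positive sign there, while relative to that median their values were -0.44, -0.40, -0.23, -0.19 and -0.09. By calls on that scale, 0 members were lower and 5 higher in QGP-1 cells, and 2 were lower in BON-1 cells. Over all genes, 89 were called lower and 9149 higher in QGP-1 cells on that scale, and 336 lower and 33 higher in BON-1 cells. The short noncoding RNAs RN7SK, RN7SL1 and RN7SL2 took 78.8% to 80.3% of the TPM of QGP-1 vehicle libraries and 71.2% to 75.4% with DOX, and 50.9% to 65.6% and 53.4% to 74.3% in BON-1 cells. The plot of the 9 genes in every library shows the levels described next.

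**Figure D1:**
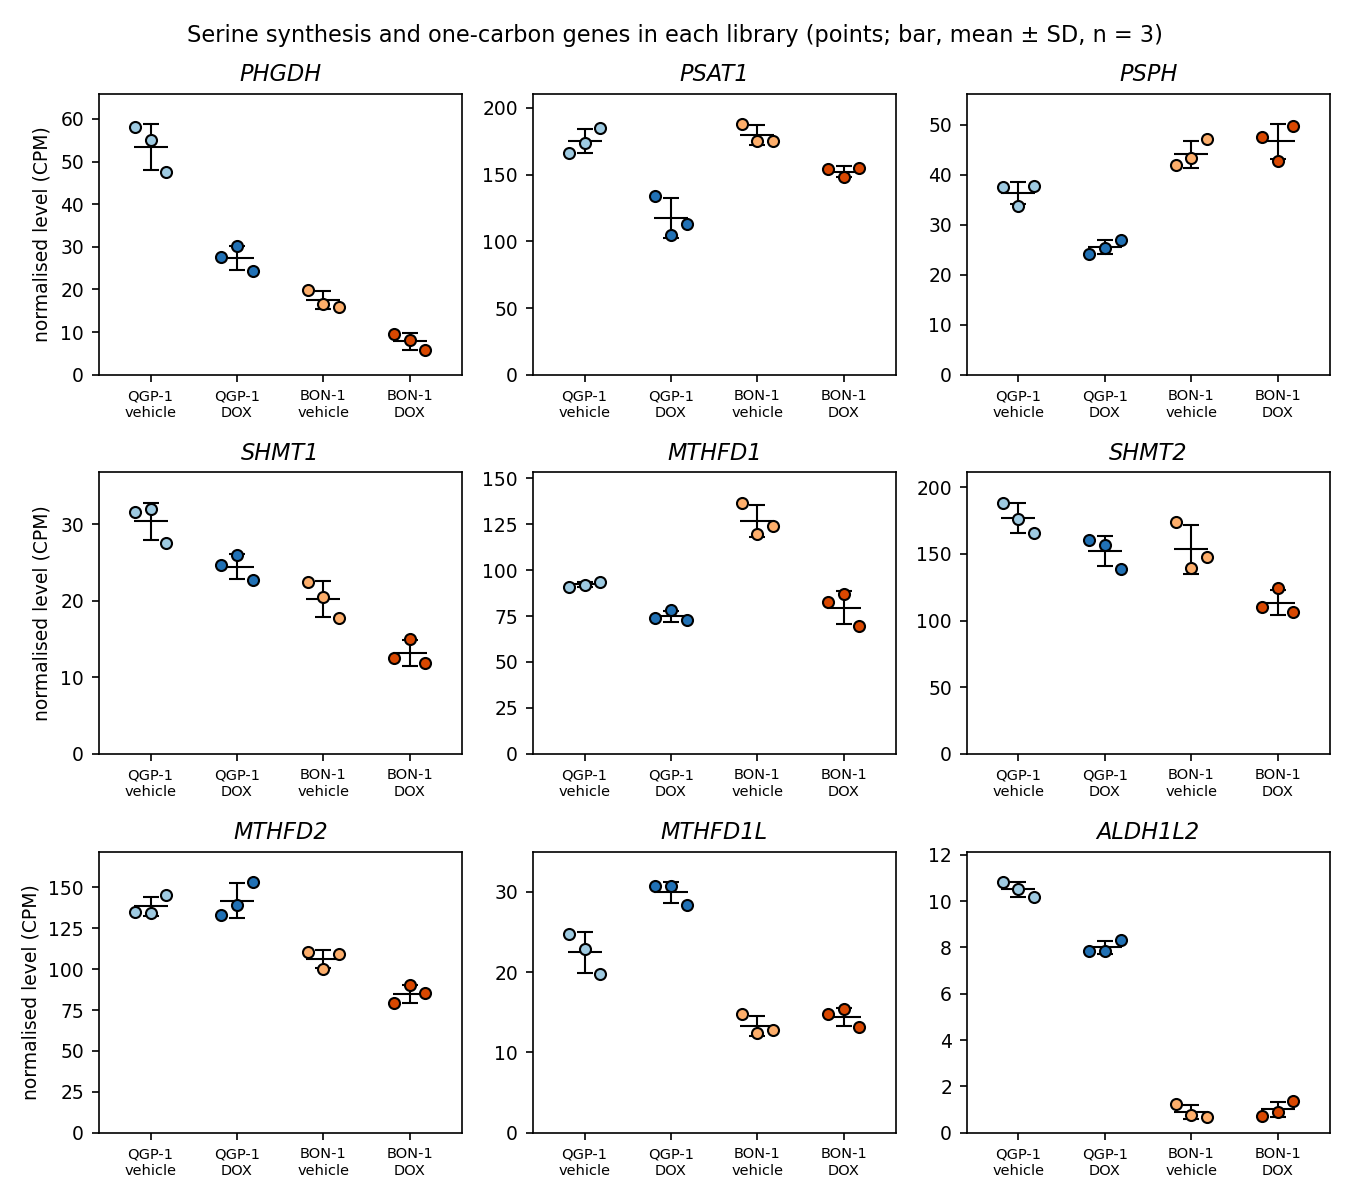
Normalized level in CPM (linear axis from 0) of each of the 9 genes in the 12 libraries, by line and treatment, with points for libraries and bars for mean ± SD of 3. PHGDH was lower with DOX in both lines, whereas the PSPH groups overlapped in BON-1 cells and the MTHFD2 groups in QGP-1 cells. On the TPM scale PSPH took a positive sign in QGP-1 cells, where the median of all genes was 0.59.

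PHGDH encodes the dehydrogenase of the first and committed step of serine synthesis and lies at chr1:119648411-119744218 on the plus strand (GRCh38). It was at 58.0, 54.9 and 47.5 CPM in QGP-1 vehicle libraries and at 27.6, 30.1 and 24.4 CPM with DOX. BON-1 libraries held it at 19.8, 16.7 and 15.8 CPM with vehicle and at 9.60, 8.20 and 5.74 CPM with DOX. Each DOX library was below each vehicle library of its line, and even the highest BON-1 vehicle library was below the lowest QGP-1 DOX library. PHGDH fell by 0.96 on the log2 scale in QGP-1 cells (SE 0.10, adjusted p = 1.14e-05), to 0.512 of the vehicle level, and by 1.17 in BON-1 cells (SE 0.17, adjusted p = 3.32e-06), to 0.445. These were the largest falls among the 9 genes in each line, and with any 1 library left out they ranged from -1.04 to -0.89 and from -1.35 to -0.99. The difference between the lines was -0.20 (SE 0.20) and did not pass the interaction test (adjusted p = 0.536).

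The RefSeq promoter of PHGDH, shown because this gene fell most in both lines, spans 250 bases before to 50 after a start inside the annotated gene (GRCh38.p14, chr1:119711684-119711983, plus strand). It holds neither of the motifs searched on both strands, TGATGNAA (core of the amino acid response element bound by ATF4) and the E box CACGTG, so no base is in capitals.
PHGDH: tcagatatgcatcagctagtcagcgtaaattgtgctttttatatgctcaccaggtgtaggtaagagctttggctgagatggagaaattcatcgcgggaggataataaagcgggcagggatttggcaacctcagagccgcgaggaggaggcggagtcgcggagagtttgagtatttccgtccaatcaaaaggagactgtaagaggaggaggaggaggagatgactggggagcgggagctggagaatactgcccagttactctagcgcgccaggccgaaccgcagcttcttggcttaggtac

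PSAT1, the aminotransferase that follows PHGDH, was the most abundant of the 9 transcripts per unit length in the vehicle libraries of both lines. Its gene is at chr9:78297125-78330093 on the plus strand. It was at 166, 174 and 185 CPM in QGP-1 vehicle libraries and at 134, 105 and 113 CPM with DOX. In BON-1 cells it was at 188, 175 and 175 CPM with vehicle and at 154, 148 and 155 CPM with DOX. The groups did not overlap in either line. PSAT1 fell by 0.58 on the log2 scale in QGP-1 cells (SE 0.09, adjusted p = 0.000193) and by 0.25 in BON-1 cells (SE 0.07, adjusted p = 0.00957).

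PSPH, the phosphatase of the last step, lies at chr7:56011051-56051604 on the minus strand. It was at 37.6, 33.8 and 37.7 CPM in QGP-1 vehicle libraries and at 24.1, 25.4 and 26.9 CPM with DOX, without overlap. BON-1 libraries held it at 41.8, 43.4 and 47.0 CPM with vehicle and at 47.4, 42.8 and 49.7 CPM with DOX, and these groups overlapped. PSPH fell by 0.51 on the log2 scale in QGP-1 cells (SE 0.09, adjusted p = 0.000581), and its log2 fold change in BON-1 cells was 0.07 (SE 0.09, adjusted p = 0.583). Reads of PSAT1 and PSPH are uncertain to the extent that they match annotated pseudogenes, of which PSAT1 has 4 and PSPH 1, none with a row in the count tables.

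SHMT1, the cytosolic serine hydroxymethyltransferase, lies at chr17:18327860-18363563 on the minus strand. It was at 31.6, 32.0 and 27.6 CPM in QGP-1 vehicle libraries and at 24.7, 26.0 and 22.7 CPM with DOX. In BON-1 cells it was at 22.5, 20.5 and 17.8 CPM with vehicle and at 12.6, 15.1 and 11.8 CPM with DOX. All DOX libraries were below all vehicle libraries of their line. SHMT1 fell by 0.31 on the log2 scale in QGP-1 cells (SE 0.10, adjusted p = 0.0221) and by 0.63 in BON-1 cells (SE 0.14, adjusted p = 0.000534). In QGP-1 cells it missed the threshold without vehicle replicate 1 (adjusted p = 0.0782), without vehicle replicate 2 (0.0986) or without DOX replicate 3 (0.0878), where the log2 fold changes were -0.28, -0.27 and -0.26.

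MTHFD1 encodes the trifunctional cytosolic enzyme that interconverts one-carbon forms of folate, at chr14:64388031-64463457 on the plus strand. It was at 91.0, 92.1 and 93.7 CPM in QGP-1 vehicle libraries and at 73.9, 78.3 and 72.6 CPM with DOX. BON-1 libraries held it at 137, 120 and 124 CPM with vehicle and at 82.4, 86.7 and 69.5 CPM with DOX. The groups were apart in both lines. MTHFD1 fell by 0.30 on the log2 scale in QGP-1 cells (SE 0.07, adjusted p = 0.00411) and by 0.68 in BON-1 cells (SE 0.09, adjusted p = 5.68e-07).

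The MTHFD1 and MTHFD1L promoters are set side by side because MTHFD1 fell in both lines while MTHFD1L, its mitochondrial relative, rose in QGP-1 cells. They are also the members, among those searched, whose RefSeq promoters hold an E box. Of the 9 genes, 6 had an entry in the RefSeq promoter set used here. PSPH, SHMT2 and ALDH1L2 had none in this set and were not searched. CACGTG occurred in 7.26% and TGATGNAA in 3.62% of all 35116 RefSeq promoters of this length. The MTHFD1 window is chr14:64388103-64388402 and that of the first of 4 MTHFD1L starts is chr6:150866236-150866535, both GRCh38.p14 and on the plus strand. Capitals mark CACGTG in both, beginning at position -15 from the start of MTHFD1 and -154 from that of MTHFD1L, and TGATGCAA at -129 in MTHFD1L. The windows of 3 of the 4 MTHFD1L starts overlap and share these matches.
MTHFD1: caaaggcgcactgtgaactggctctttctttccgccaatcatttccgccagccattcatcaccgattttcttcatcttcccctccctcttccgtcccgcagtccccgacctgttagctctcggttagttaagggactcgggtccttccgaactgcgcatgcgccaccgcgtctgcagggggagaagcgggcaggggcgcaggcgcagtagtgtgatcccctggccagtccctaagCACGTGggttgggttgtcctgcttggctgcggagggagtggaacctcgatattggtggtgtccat
MTHFD1L: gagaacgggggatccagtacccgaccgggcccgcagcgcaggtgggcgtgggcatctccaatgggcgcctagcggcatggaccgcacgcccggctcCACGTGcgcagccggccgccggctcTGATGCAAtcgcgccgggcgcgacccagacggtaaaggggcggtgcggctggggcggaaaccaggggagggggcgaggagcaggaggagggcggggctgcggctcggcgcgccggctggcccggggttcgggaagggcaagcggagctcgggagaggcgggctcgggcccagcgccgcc

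MTHFD1L is the mitochondrial enzyme that releases formate to the cytosol, and its gene is at chr6:150865679-151101887 on the plus strand. It was at 24.8, 22.8 and 19.7 CPM in QGP-1 vehicle libraries and at 30.7, 30.7 and 28.4 CPM with DOX. In BON-1 cells it was at 14.8, 12.5 and 12.8 CPM with vehicle and at 14.7, 15.4 and 13.2 CPM with DOX. The QGP-1 groups did not overlap and the BON-1 groups did. MTHFD1L rose by 0.42 on the log2 scale in QGP-1 cells (SE 0.10, adjusted p = 0.00557) and its value in BON-1 cells was 0.11 (SE 0.14, adjusted p = 0.595). It was the only member that rose in either line, and the difference between the lines, -0.30, did not pass the interaction test (SE 0.17, adjusted p = 0.229).

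SHMT2, the mitochondrial counterpart of SHMT1, lies at chr12:57229573-57234935 on the plus strand. It was at 188, 176 and 166 CPM in QGP-1 vehicle libraries and at 160, 157 and 139 CPM with DOX. BON-1 libraries held it at 174, 139 and 147 CPM with vehicle and at 110, 124 and 106 CPM with DOX. The groups did not overlap, although the lowest QGP-1 vehicle library was close to the highest DOX library. SHMT2 fell by 0.22 on the log2 scale in QGP-1 cells (SE 0.08, adjusted p = 0.0384) and by 0.45 in BON-1 cells (SE 0.09, adjusted p = 0.000163). In QGP-1 cells it missed the threshold without vehicle replicate 1 (-0.17, adjusted p = 0.166), vehicle replicate 2 (-0.22, 0.0987), DOX replicate 2 (-0.24, 0.0601) or DOX replicate 3 (-0.16, 0.156).

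MTHFD2, the mitochondrial dehydrogenase and cyclohydrolase that is high in many tumors and embryonic tissues, lies at chr2:74186172-74217565 on the plus strand. It was at 135, 134 and 145 CPM in QGP-1 vehicle libraries and at 133, 139 and 153 CPM with DOX, and the groups overlapped. In BON-1 cells it was at 110, 100 and 109 CPM with vehicle and at 79.3, 90.0 and 85.7 CPM with DOX, without overlap. Its log2 fold change in QGP-1 cells was 0.04 (SE 0.07, adjusted p = 0.739), and in BON-1 cells it fell by 0.33 (SE 0.08, adjusted p = 0.00167).

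ALDH1L2, which oxidizes the mitochondrial one-carbon unit to carbon dioxide, lies at chr12:105019784-105107643 on the minus strand. It was at 10.8, 10.5 and 10.2 CPM in QGP-1 vehicle libraries and at 7.84, 7.85 and 8.32 CPM with DOX. BON-1 libraries held it at 1.25, 0.776 and 0.694 CPM with vehicle and at 0.743, 0.916 and 1.36 CPM with DOX, from 12 to 36 reads a library. The QGP-1 groups were apart and the BON-1 groups overlapped, with a standard error of 0.46 for the log2 fold change in BON-1 cells. ALDH1L2 fell by 0.39 on the log2 scale in QGP-1 cells (SE 0.12, adjusted p = 0.0191), and its value in BON-1 cells was 0.13 (adjusted p = 0.858). In QGP-1 cells it missed the threshold without vehicle replicate 1 (-0.37, adjusted p = 0.0582), vehicle replicate 2 (-0.39, 0.0557) or DOX replicate 2 (-0.38, 0.0663). SHMT1, SHMT2 and ALDH1L2 are the 3 calls lost together without either of these vehicle replicates.

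Several members share sequence or position with other genes, and the sources used here do not say how such reads were counted. MTHFD2 has 7 annotated pseudogenes, of which 1 has a row in the count tables, at 0 CPM in each group. SHMT1 and MTHFD1 have 1 pseudogene each. On the opposite strand ALDH1L2 overlaps WASHC4, which averaged 130 CPM in QGP-1 vehicle and 168 CPM in DOX libraries, opposite in direction to ALDH1L2. In BON-1 cells WASHC4 averaged 308 CPM with vehicle and 391 CPM with DOX. There ALDH1L2 had only 12 to 36 reads a library and a log2 fold change of 0.13, of the same sign. Whether WASHC4 reads entered the BON-1 level of ALDH1L2 was not tested. SHMT1 overlaps SMCR8, at 68.3 and 78.8 CPM in QGP-1 vehicle and DOX libraries. MTHFD1 overlaps ZBTB25, at 16.8 and 14.8 CPM in the same QGP-1 groups. The genes opposite SHMT2 and MTHFD2, NDUFA4L2 and SLC4A5, averaged 1.62 and 1.46 CPM in QGP-1 vehicle libraries.

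**Figure D2:**
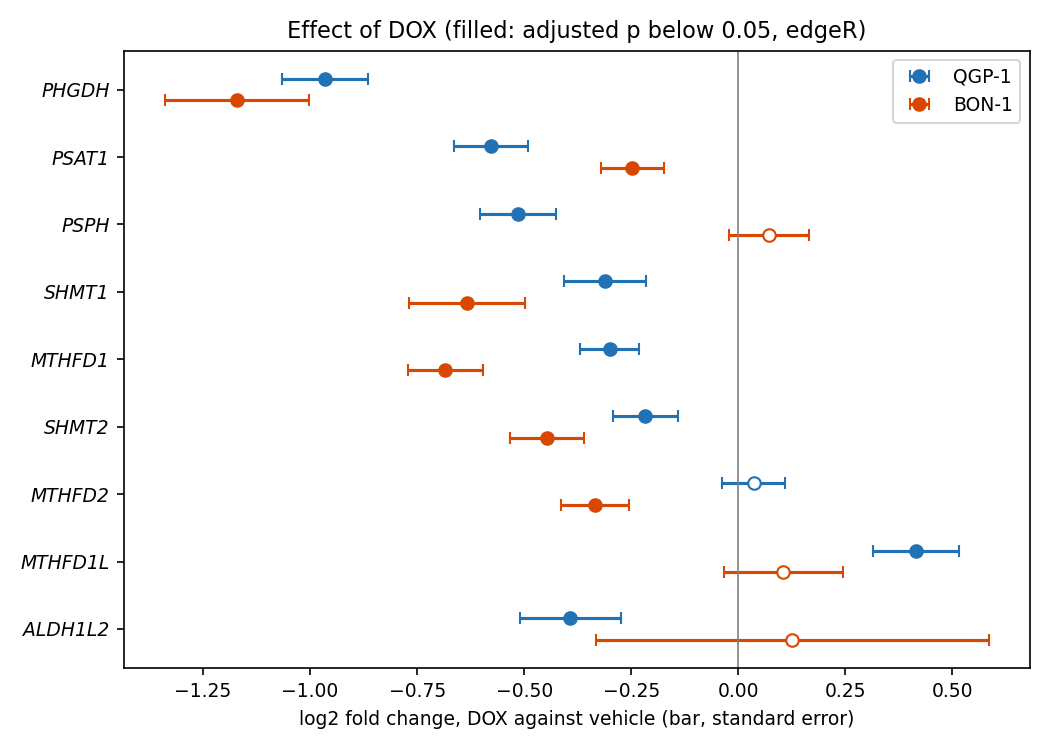
Log2 fold change of each member, DOX against vehicle, in QGP-1 (blue) and BON-1 (orange) cells, with bars for the standard error and filled points for an adjusted p below 0.05 (edgeR). PSAT1, PSPH, MTHFD1 and MTHFD2 differed between the lines by the interaction test and the other 5 genes did not pass it. On the TPM scale 5 members changed sign in QGP-1 cells, where the median of all genes was 0.59.

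The response of the members differed between the lines in both directions. In 1 fit of all 12 libraries, the interaction of line and DOX called 4 of the 9 genes, beside a background of 7.92% lower and 8.8% higher of the 16598 genes tested. PSPH differed most, with a DOX effect in BON-1 minus QGP-1 cells of 0.60 (SE 0.13, adjusted p = 0.0026), and it was called in each of the 12 fits that left out 1 library. The effect on PSAT1 was less negative in BON-1 cells (0.34, SE 0.12, adjusted p = 0.0443), and that on MTHFD1 (-0.37, SE 0.12, adjusted p = 0.0299) and MTHFD2 (-0.36, SE 0.11, adjusted p = 0.0265) more negative. PSAT1 missed the threshold with library sizes (adjusted p = 0.0778) or RLE (0.0527) in place of TMM and with a block for the replicate number (0.0503). With 1 library left out, PSAT1 was called in 2 of 12 fits, those without QGP-1 vehicle replicate 1 (adjusted p = 0.044) or DOX replicate 1 (0.0106), and missed the threshold in the other fits with an adjusted p of 0.0517 to 0.147. MTHFD1 was called in 7 of 12, and not without QGP-1 vehicle replicate 1 (adjusted p = 0.0581), vehicle replicate 2 (0.0575) or DOX replicate 2 (0.0788), nor without BON-1 vehicle replicate 1 (0.075) or DOX replicate 3 (0.0736). MTHFD2 was also called in 7 of 12, and not without QGP-1 vehicle replicate 1 (adjusted p = 0.0568), vehicle replicate 2 (0.0637) or DOX replicate 3 (0.0828), nor without BON-1 vehicle replicate 3 (0.0516) or DOX replicate 1 (0.0607). On the TPM scale, where the median of all genes for this difference was -0.88, PSAT1 and PSPH took values of -0.75 and -0.48. With library sizes in place of TMM the all-gene calls changed from 1315 lower and 1461 higher to 1823 and 1123.

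With vehicle alone, the lines differed in 7 of the 9 genes, beside 38% of all 15835 genes lower and 39.4% higher in BON-1 than in QGP-1 cells. The count of members is near the share of all genes and is no result about the members. ALDH1L2 was lower in BON-1 cells by 3.45 on the log2 scale (log2 difference -3.45, SE 0.22, adjusted p = 1.14e-11), at a mean of 0.908 CPM against 10.5 CPM. PHGDH was the next, with a log2 difference of -1.57 (SE 0.10, adjusted p = 1.88e-11). MTHFD1L, SHMT1 and MTHFD2 were also lower in BON-1 cells, with log2 differences of -0.71, -0.54 and -0.34, and MTHFD1 and PSPH were higher, with 0.50 and 0.31. PSAT1 (0.07, adjusted p = 0.334) and SHMT2 (-0.17, adjusted p = 0.0605) did not pass. SHMT2 was called lower without QGP-1 vehicle replicate 3 (-0.21, adjusted p = 0.0204) or without BON-1 vehicle replicate 1 (-0.30, adjusted p = 0.00237). On the TPM scale the median of all genes for this comparison was 1.11 and 7 members were called higher in BON-1 cells. Over all genes, 647 were called lower and 9794 higher on that scale.

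Within each library the members can be ranked per unit of gene length from the TPM values, as shares of the summed TPM of the 9 genes. In QGP-1 vehicle libraries the order of these levels was PSAT1 (27.3% ± 1.5, SD, n = 3), MTHFD2 (21.3% ± 0.927), SHMT2 (21.1% ± 1.28), PHGDH (9.51% ± 0.936), MTHFD1 (8.96% ± 0.172), PSPH (6.10% ± 0.334), SHMT1 (4.12% ± 0.335), MTHFD1L (1.23% ± 0.136) and ALDH1L2 (0.445% ± 0.012). MTHFD2 and SHMT2 overlapped between libraries in this order, as did PHGDH and MTHFD1. In BON-1 vehicle libraries PSAT1 took 31.5%, SHMT2 20.5%, MTHFD2 18.4%, MTHFD1 13.8%, PSPH 8.34%, PHGDH 3.48% and SHMT1 3.08%, and only the last pair overlapped among these neighbours. With DOX the share of PHGDH went to 6.09% ± 0.629 in QGP-1 and 1.99% ± 0.482 in BON-1 cells, below every vehicle library. That of MTHFD2 went from 21.3% to 27.3% ± 2.53 in QGP-1 cells, where MTHFD2 took the first place from PSAT1 at 22.9% ± 2.45 in 2 of 3 libraries. MTHFD1L went from 1.23% to 2.05% in QGP-1 and from 0.820% to 1.13% in BON-1 cells, and in both lines its DOX libraries were all above its vehicle libraries. A share of a fixed sum also rises when the other members fall, and the levels of MTHFD2 in QGP-1 and of MTHFD1L in BON-1 cells did not pass the test.

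**Figure D3:**
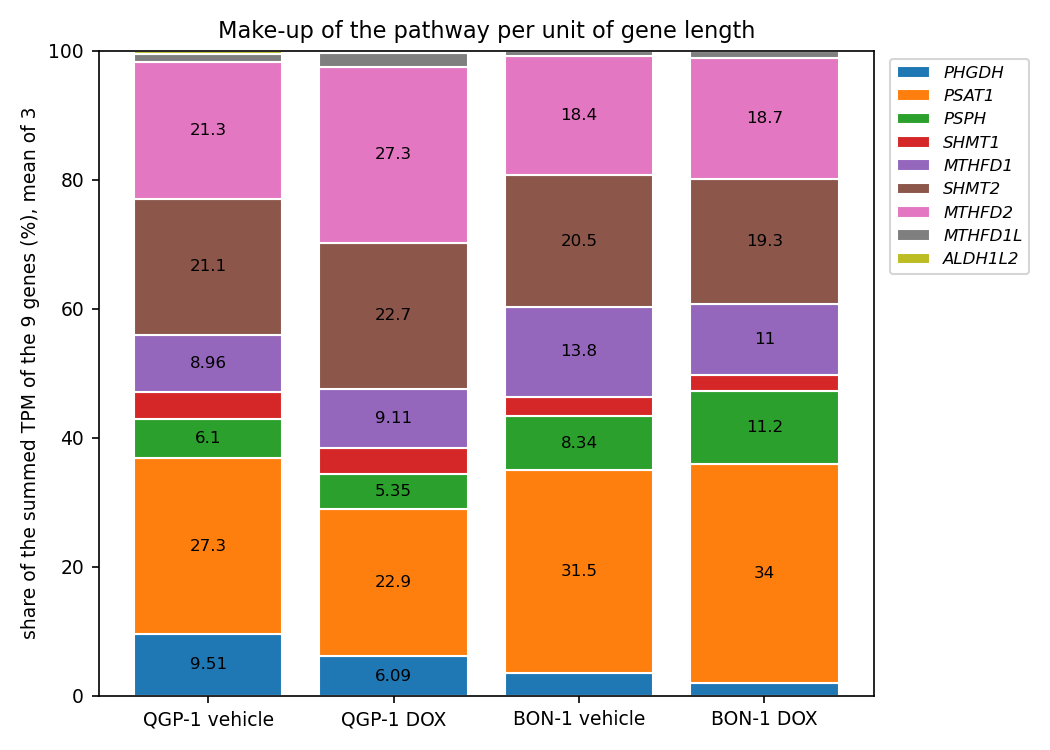
Share of each member in the summed TPM of the 9 genes (percent, mean of 3 libraries) in the 4 groups. PHGDH took a smaller share with DOX in both lines, and MTHFD2 a larger share in QGP-1 cells, from 21.3% to 27.3%, where its own level did not pass the test and other members fell.

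Ratios of a mitochondrial to a cytosolic enzyme within a library do not depend on the scaling between libraries. The MTHFD2 to MTHFD1 ratio of TPM was 2.37 ± 0.072 in QGP-1 vehicle and 3.0 ± 0.301 in DOX libraries, and 1.33 ± 0.058 and 1.71 ± 0.221 in BON-1 libraries (SD, n = 3). The groups did not overlap in either line, with log2 differences of 0.33 and 0.35 and an exact two-sided permutation p of 0.1 each, the smallest that 3 against 3 can give. For SHMT2 to SHMT1 the ratio was 5.13 ± 0.236 and 5.46 ± 0.203 in QGP-1 cells (log2 difference 0.09, exact permutation p = 0.1) and 6.69 ± 0.670 and 7.61 ± 0.315 in BON-1 cells (0.19, p = 0.2). Adjusted over these 4 exact tests, p was 0.133 for each but the last, where it was 0.2.

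Of 69 other genes in lists of folate, glycine, methionine, serine and purine metabolism and of ATF4 targets, 56 were tested in each line. In QGP-1 cells 13 fell and 15 rose, and in BON-1 cells 8 fell and 8 rose, beside the 17.7% and 17.3% of all genes given above for QGP-1 and the 18.3% and 17% for BON-1 cells, against which the counts below are also to be read. Some genes below, namely FPGS, GCSH, DMGDH, MTR, MTRR, SLC1A5, SFXN3, SRR, GART, ADSL, ATIC, PFAS, TRIB3 and SLC3A2, are named only to complete a count and were chosen after their values were seen. The markers of neuroendocrine and other cell types that are named are also outside the rule for named genes. Markers of other cell types were checked because bulk RNA cannot tell fewer cells of a type from less RNA per cell. Their summed level (6 genes) was 88.6 to 158 CPM in QGP-1 vehicle and 31.4 to 42.9 CPM in DOX libraries, and 35.4 to 45.5 and 19.7 to 28 CPM in BON-1 cells, and so it was lower with DOX in both lines together with the members. PRSS1, a trypsinogen of acinar cells, made up 97.4% of it in QGP-1 vehicle libraries, where CPA1, another acinar enzyme, had 0 counts and COL3A1, PTPRC and PECAM1 were below 1 CPM. Of the 3 of these 6 genes tested in each line, PRSS1 fell by 1.83 on the log2 scale in QGP-1 and by 0.75 in BON-1 cells, COL1A1 fell in QGP-1 cells and CPA1 in BON-1 cells, and PECAM1 did not pass in either. Of the neuroendocrine markers, CHGA fell by 1.46 and SYP by 0.34 in BON-1 cells and SCG2 rose by 0.45, while CHGB rose by 0.39 in QGP-1 cells and the rest did not pass. The part of these changes in the result was not tested.

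**Figure D4:**
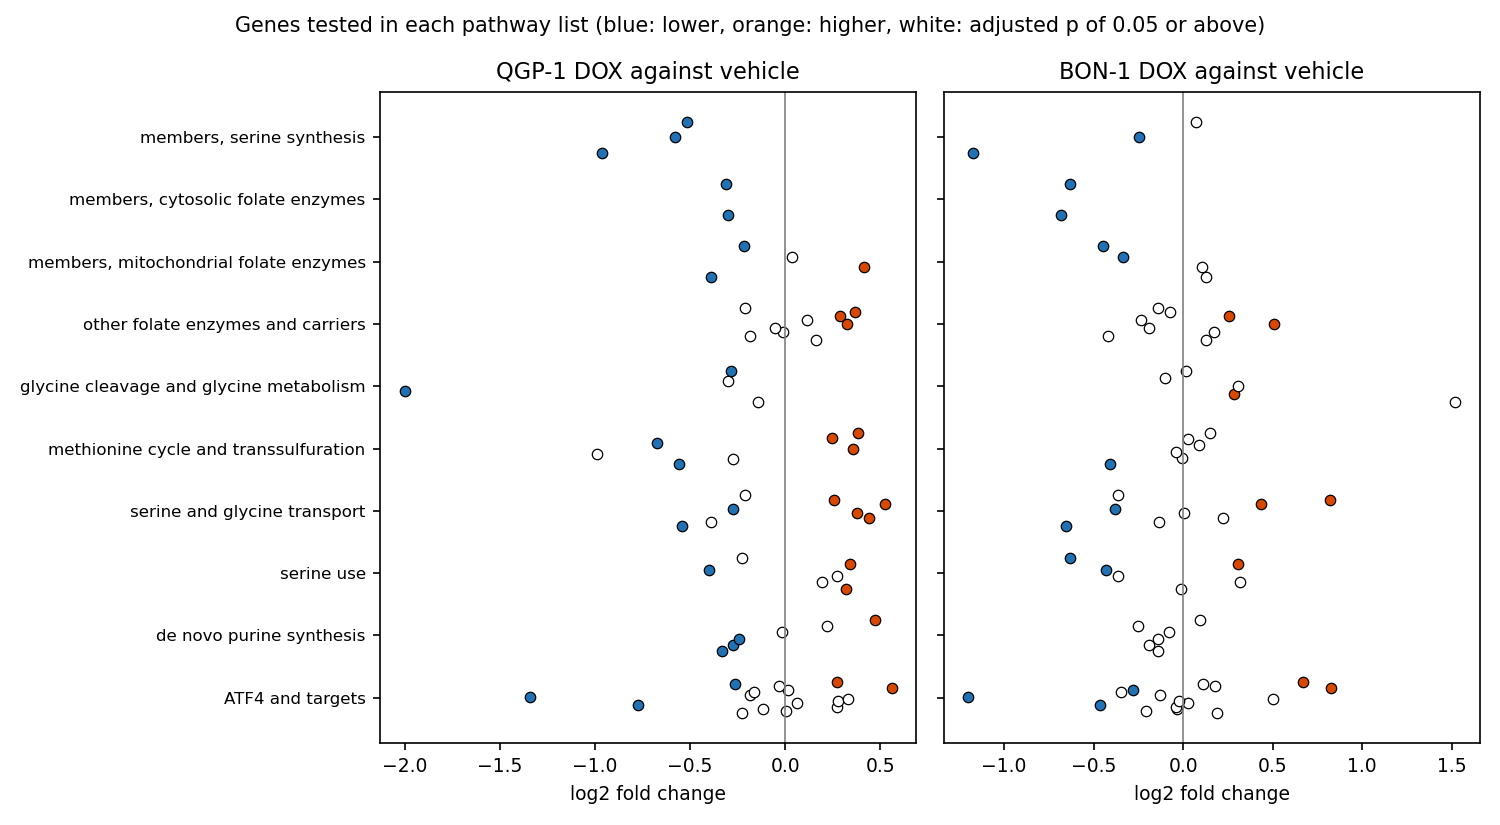
Log2 fold change with DOX of every tested gene in each pathway list, in QGP-1 and BON-1 cells (blue fell, orange rose, white did not pass an adjusted p of 0.05). The members of serine synthesis and cytosolic folate metabolism lie at or left of 0 except PSPH in BON-1 cells (0.07). The other lists hold genes on both sides over the 2 lines together, the 4 glycine genes tested in QGP-1 cells all lying left of 0. On the TPM scale 5 of the members turned positive in QGP-1 cells, where the median of all genes was 0.59.

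Among 13 other folate enzymes and carriers, 9 were tested in each line, of which 0 fell (1 at an unadjusted p below 0.05 in edgeR, and 0 by DESeq2) and 3 rose in QGP-1 cells, and 0 fell (1, FPGS, at an unadjusted p below 0.05, and 0 by DESeq2) and 2 rose in BON-1 cells. MTHFD2L, a relative of MTHFD2 in mitochondria, went from 26.3 ± 2.46 to 33.0 ± 2.84 CPM in QGP-1 and from 41.1 ± 4.63 to 58.6 ± 3.45 CPM in BON-1 cells. It rose in both lines (0.33, adjusted p = 0.0204, and 0.51, adjusted p = 0.000148), in contrast to MTHFD2, but missed the threshold in QGP-1 cells without vehicle replicate 1 (0.0906), vehicle replicate 2 (0.0723) or DOX replicate 3 (0.0945). SLC25A32, the mitochondrial folate carrier, also rose in both (0.28, adjusted p = 0.00606, and 0.26, adjusted p = 0.019), but in BON-1 cells not without vehicle replicate 2 (adjusted p = 0.159), vehicle replicate 3 (0.0645) or DOX replicate 3 (0.0761). SLC46A1, the proton-coupled folate transporter, went from 30.8 ± 1.40 to 39.7 ± 1.86 CPM in QGP-1 and from 24.8 ± 2.46 to 23.9 ± 1.11 CPM in BON-1 cells. It rose in QGP-1 cells (0.37, adjusted p = 0.00401) and had a value of -0.07 in BON-1 cells.

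The methionine cycle held 7 tested genes in QGP-1 cells, of which 2 fell and 3 rose, and 6 in BON-1 cells, of which 1 fell. AHCY, which clears S-adenosylhomocysteine, fell in both lines, by 0.56 (adjusted p = 5.31e-05) and 0.41 (adjusted p = 0.00104) on the log2 scale. MAT2A and MAT2B, catalytic and regulatory subunits of S-adenosylmethionine synthetase, moved apart in QGP-1 cells, where MAT2A rose by 0.36 (adjusted p = 0.00252) and MAT2B fell by 0.67 (adjusted p = 3.71e-05). In BON-1 cells their values were -0.04 and 0.09. The others that rose in QGP-1 cells were MTR, methionine synthase (0.25, adjusted p = 0.0324), and MTRR, its reductase (0.38, adjusted p = 0.0196). Of the glycine cleavage and metabolism genes, 2 of 4 tested fell in QGP-1 cells, GCSH (log2 fold change -0.28) and the scarce DMGDH (-2.0, from 34 or fewer reads a library), and 1 of 5 rose in BON-1 cells, the latter being DLD, the shared dehydrogenase subunit (0.28, adjusted p = 0.00471), a call lost without vehicle replicate 3 (adjusted p = 0.0522).

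Of the 8 serine and glycine transporters, 2 fell and 4 rose in QGP-1 cells, and 2 fell and 2 rose in BON-1 cells. SFXN1, which carries serine into mitochondria, went from 224 ± 11.2 to 153 ± 7.83 CPM in QGP-1 and from 145 ± 6.97 to 92.6 ± 3.26 CPM in BON-1 cells, and fell by 0.54 (adjusted p = 4.99e-05) and 0.65 (adjusted p = 1e-07) on the log2 scale. SLC38A1 and SLC38A2, plasma membrane carriers of small neutral amino acids, rose in both lines. SLC38A2 went from 1271 ± 33.1 to 1515 ± 16.2 CPM in QGP-1 and from 418 ± 7.03 to 744 ± 66.5 CPM in BON-1 cells. Its log2 fold changes were 0.25 and 0.82, with an interaction of 0.58 (adjusted p = 0.000458, edgeR). On the TPM scale the interaction of SLC38A2 was -0.54, where the median of all genes was -0.88. SLC38A1 had log2 fold changes of 0.53 and 0.43. SLC1A4, a further serine carrier, rose by 0.38 in QGP-1 cells (adjusted p = 0.00121) and had a value of 0.01 in BON-1 cells. SLC1A5, an exchanger of neutral amino acids, fell in both lines, by 0.27 and 0.38, and SFXN3, a relative of SFXN1, rose in QGP-1 cells by 0.44.

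Genes that use serine or one-carbon units were mixed as well. Of 6 tested genes of serine use, 1 fell and 2 rose in QGP-1 cells and 2 fell and 1 rose in BON-1 cells. SPTLC1 and SPTLC2, subunits of the enzyme that condenses serine with palmitoyl-CoA in sphingolipid synthesis, moved in opposite directions in both lines. SPTLC1 fell by 0.40 and 0.43, and SPTLC2 rose by 0.34 and 0.31. PTDSS1, a phosphatidylserine synthase, rose in QGP-1 cells (0.32, adjusted p = 0.0022) and had a value of -0.01 in BON-1 cells, where SRR, serine racemase, fell by 0.63 (adjusted p = 0.00306). Of the 6 enzymes of de novo purine synthesis, 3 fell (GART, ADSL and ATIC, with log2 fold changes of -0.24, -0.33 and -0.27) and 1 rose in QGP-1 cells. In BON-1 cells 0 passed by edgeR or by DESeq2, and 2, PFAS and ATIC, were lower at an unadjusted p below 0.05. PPAT, the first of them, rose in QGP-1 cells by 0.47 (adjusted p = 0.000109).

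ATF4 is known as an activator of PHGDH, PSAT1, PSPH, SHMT2 and MTHFD2 when amino acids are short. Its transcript was at 132, 123 and 115 CPM in QGP-1 vehicle libraries and at 134, 109 and 97.2 CPM with DOX, and in BON-1 cells at 154, 147 and 155 CPM and at 153, 147 and 147 CPM. The groups overlapped in both lines, with log2 fold changes of -0.12 (adjusted p = 0.396) and -0.03 (adjusted p = 0.757), and without DOX replicate 1 the QGP-1 value was -0.25 (adjusted p = 0.0289). ATF4 is regulated mostly at translation, which these data do not measure. Of ATF4 and its targets outside the pathway, 16 were tested, and in each line 3 fell and 2 rose, shares near or below those of all genes. CEBPB and DDIT4 fell in both lines, with TRIB3 in QGP-1 cells (-0.27, adjusted p = 0.0377) and SLC3A2 in BON-1 cells (-0.28, adjusted p = 0.0137). TRIB3 was no longer called with library sizes in place of TMM, with no filter on low counts, or without QGP-1 vehicle replicate 1 or 2 or DOX replicate 2 or 3. DDIT4, a stress-induced inhibitor of mTORC1 signaling, fell by 1.34 (adjusted p = 3.83e-05) and 1.20 (adjusted p = 0.000408), where the BON-1 value was close to that of PHGDH (-1.17). SLC7A11, the cystine importer, rose by 0.56 (adjusted p = 1.48e-05) and 0.82 (adjusted p = 2.71e-09). VLDLR, a lipoprotein receptor, rose by 0.27 and 0.67, but missed the threshold in QGP-1 cells without vehicle replicate 1 (adjusted p = 0.0589), vehicle replicate 2 (0.122) or DOX replicate 3 (0.11). CEBPB, a partner of ATF4, fell by 0.77 (adjusted p = 0.0106) and 0.47 (adjusted p = 0.00468), but in QGP-1 cells not without vehicle replicate 1 (adjusted p = 0.052) or vehicle replicate 2 (0.0501), and in BON-1 cells not without vehicle replicate 1 (0.0529).

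MYC, another known activator of serine and folate enzymes, which binds E boxes, went from 114 ± 10.7 to 135 ± 12.7 CPM in QGP-1 and from 71.6 ± 8.53 to 89.0 ± 3.05 CPM in BON-1 cells. It rose by 0.24 (SE 0.09, adjusted p = 0.0446) and 0.30 (SE 0.09, adjusted p = 0.00657), and the vehicle and DOX groups overlapped in QGP-1 cells. On the TPM scale, where the median of all genes was -0.31 in BON-1 cells, MYC took a negative sign there. The QGP-1 call of MYC held in 1 of the 6 fits that left out a library and the BON-1 call in 4 of 6, with log2 fold changes from 0.16 to 0.31 and from 0.25 to 0.40.

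The genes whose levels ran most like those of PHGDH were found among 9083 genes whose mean log2 CPM reached 3 in each line, by the Pearson correlation of log2 CPM centered within each line over 12 libraries. They were RAB5C (r = 0.986), an endosomal GTPase, TPI1 (0.984), a glycolytic enzyme, PTP4A3 (0.981), a phosphatase, PRKCSH (0.981), the beta subunit of glucosidase II, and PRMT1 (0.981), an arginine methyltransferase. The 12 libraries share the difference between vehicle and DOX, and these correlations are a description without a test.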

How the data were processed

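The authors sequenced 12 RNA libraries, 3 of each line and treatment, made with a stranded mRNA kit. The reads were aligned with STAR to the human genome, given as GRCh38 and hg38 in the submitters' processing notes, which also name DESeq2. The STAR version, the counter, its use of strand and its handling of reads with several matches are not given in the sources used here. The authors deposited raw counts per gene and TPM values, which are counts divided by a gene length and scaled to the same sum in each library. Gene lengths were not stated, and 0 columns were left unused.

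The deposited counts were tested within each line with edgeR 4.0.16 (R 4.3.3, limma 3.58.1) by its quasi-likelihood test after filterByExpr and TMM, with Benjamini-Hochberg adjustment over all genes tested and an adjusted p below 0.05 as the threshold. The study used DESeq2, which is an alternative here (1.42.0). The difference between the lines is the interaction of line and DOX in a fit of all 12 libraries. Levels are CPM with TMM factors of all 12 libraries. Standard errors are the absolute log2 fold change over the root of F. Ratios were compared by exact two-sided permutation tests over libraries. No replicate was a copy of another, as the chi-square per gene of each pair was 5.92 to 29.7 (genes with at least 20 counts in the pair). At this depth counting error is small except for genes with few reads, such as ALDH1L2 in BON-1 cells. The code was tested on simulated data before use.

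The genes named are the 9 members, MUC1, ATF4, MYC and, per list, up to 3 genes with the largest mean change among those called in the same direction in both lines and up to 2 with the largest called interaction, and the 5 genes most like PHGDH. Genes named beyond this are said to be so in the text. Some genes of the folate list are not reported here and were left out of its counts, though not of the fits. The members, the lists and the rule were chosen with earlier results of these data known. Alternatives were DESeq2, library size or RLE in place of TMM, no filter, at least 10 counts in every library, limma on log2(TPM + 1) where the mean TPM was 1 or more, a minimum absolute log2 fold change of 1, both lines in 1 fit, a block for the replicate number, and leaving out each library. The TPM analysis without RN7SK, RN7SL1 and RN7SL2 was chosen after seeing the data. Gene positions are from GENCODE v44 (GRCh38). Promoters are from a RefSeq promoter set (GRCh38.p14), in which 6 of 9 members had an entry.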

Additional observations from a re-analysis of the deposited data

Results flagged for a closer look

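The effect of DOX differed between the lines in the genes below by the edgeR interaction test over 16598 genes (BON-1 minus QGP-1, log2 scale, adjusted p below 0.05), beside 7.92% of all genes lower and 8.8% higher. The genes of the pathway lists were named because they passed this test, so their number is no result. Among the 9 members these were PSPH (0.60), PSAT1 (0.34), MTHFD1 (-0.37) and MTHFD2 (-0.36). Among folate, glycine and methionine genes they were SLC46A1 (-0.43), DLD (0.44), MAT2B (0.77) and MAT2A (-0.39). Transport and serine use gave SLC38A2 (0.58), SLC1A4 (-0.36) and PTDSS1 (-0.32), purine synthesis gave PPAT (-0.37) and the ATF4 list gave VLDLR (0.41). Of the cell type markers named outside the rule, CHGA (-1.60), SYP (-0.51) and PRSS1 (1.10) also passed.

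PSPH, DLD, MAT2B and SLC38A2 were called in all 12 fits that left out 1 library, but on the TPM scale, where the median of all genes was -0.88, they took values of -0.48, -0.65, -0.31 and -0.54. MAT2A lost its call without QGP-1 vehicle replicate 1 (adjusted p = 0.0581) and PPAT without QGP-1 DOX replicate 2 (0.0522). SLC46A1 was called in 5 of 12 fits (-0.52 to -0.39), and not without QGP-1 vehicle replicate 2 (0.0886) or 3 (0.0522), QGP-1 DOX replicate 2 (0.0522) or 3 (0.051), BON-1 vehicle replicate 1 (0.0724) or 2 (0.064) or BON-1 DOX replicate 3 (0.0622). SLC1A4 was called in 6 of 12 fits (-0.45 to -0.30), and not without QGP-1 vehicle replicate 1 (0.0554), 2 (0.0933) or 3 (0.0712), QGP-1 DOX replicate 2 (0.0939), BON-1 vehicle replicate 1 (0.0941) or BON-1 DOX replicate 1 (0.0836). The call of SLC1A4 was also lost with a block for the replicate number. PTDSS1 was called in 6 of 12 (-0.40 to -0.29), and not without QGP-1 vehicle replicate 1 (0.06) or 2 (0.0776), QGP-1 DOX replicate 2 (0.0628) or 3 (0.0946), BON-1 vehicle replicate 1 (0.065) or BON-1 DOX replicate 3 (0.0619). VLDLR was called in 4 of 12 (0.34 to 0.45), those without QGP-1 vehicle replicate 1 or 2, QGP-1 DOX replicate 3 or BON-1 DOX replicate 3, and its adjusted p was 0.0531 to 0.0735 in the others. The values are adjusted p of edgeR, with log2 differences where a range is given.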

How the results depend on the processing

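The precision is limited by 3 libraries a group and, for ALDH1L2 in BON-1 cells, by few reads. Across the 31 genes named by the rule, those most like PHGDH in pattern aside, DESeq2 changed no direction or call. The other genes named were not followed one by one, apart from the TRIB3 calls given above. The TPM scale changed most, and there the median of all genes moved too, to 0.59 (QGP-1), -0.31 (BON-1), -0.88 for the difference between the lines and 1.11 between the vehicle groups, and to 0.29, -0.05, -0.33 and 0.31 without RN7SK, RN7SL1 and RN7SL2. Unless stated, the cause of a changed call was not tested.

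With limma on log2(TPM + 1), 0 members were lower and 5 higher in QGP-1 cells, 2 were lower in BON-1 cells, the difference between the lines was lower in 7 and higher in 0, and between vehicle groups 0 were lower and 7 higher in BON-1 cells. The calls over all genes on this scale are given at the end of this section. Signs turned in QGP-1 cells for PSAT1 (0.15), PSPH (0.20), SHMT1 (0.36), SHMT2 (0.50), MTHFD1 (0.40), ATF4 (0.59), DLD (0.57), AHCY (0.16), MAT2B (0.06), SFXN1 (0.19) and SPTLC1 (0.33). They turned in BON-1 cells for PSPH (-0.28), MTHFD1L (-0.16), MYC (-0.05), SLC25A32 (-0.10), DLD (-0.08), MAT2B (-0.25), SLC1A4 (-0.32), SPTLC2 (-0.05) and PPAT (-0.26). The difference between the lines turned for PSAT1 (-0.75), PSPH (-0.48), DLD (-0.65), MAT2B (-0.31), SLC38A2 (-0.54) and VLDLR (-0.46), and that between vehicle groups for SHMT1 (0.68), SHMT2 (1.14), MTHFD2 (0.97) and MTHFD1L (0.39).

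Without the 3 short RNAs, a choice made after seeing the data, 2 members were lower and 2 higher in QGP-1 cells, the difference between the lines was lower in 5 and higher in 0, and 3 were lower in BON-1 vehicle libraries. Here SHMT1 (0.01), SHMT2 (0.10), MTHFD1 (0.02), ATF4 (0.19) and DLD (0.18) turned in QGP-1 cells, SLC1A4 (-0.03) in BON-1 cells, PSAT1 (-0.03) in the difference between the lines and SHMT2 (0.15) between vehicle groups.

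Requiring an absolute log2 fold change above 1 left 0 members lower and 0 higher in QGP-1 cells, 1 lower in BON-1 cells, 0 and 0 in the difference between the lines, and 2 lower and 0 higher between vehicle groups, which follows from the stricter rule. Library sizes, RLE and the block each left 1 member with a higher difference between the lines, in place of 2, as PSAT1 lost its call. VLDLR lost its call for this difference with library sizes (0.34, adjusted p = 0.0576) and without a filter (0.38, adjusted p = 0.0846). Between vehicle groups PSAT1 passed with library sizes (0.15, adjusted p = 0.0443) and SHMT2 with RLE (-0.19, adjusted p = 0.0456) and without a filter (-0.19, adjusted p = 0.0297). In BON-1 cells SLC1A4, near 0, turned with library sizes (-0.04), without a filter (-0.01), with at least 10 counts in every library (-0.01) and without vehicle replicate 2 (-0.01), vehicle replicate 3 (-0.07), DOX replicate 2 (-0.05) or DOX replicate 3 (-0.02). Its values with a library left out were -0.07 to 0.08, those of PTDSS1 -0.06 to 0.02 and those of ALDH1L2 -0.16 to 0.44. PTDSS1 turned with RLE (0.00) and without vehicle replicate 1 (0.02) or DOX replicate 3 (0.00), and ALDH1L2 without vehicle replicate 3 (-0.02) or DOX replicate 3 (-0.16). MTHFD2 in QGP-1 cells turned without DOX replicate 3 (-0.03). With both lines in 1 fit, SHMT2 (adjusted p = 0.0615) and ALDH1L2 (0.095) lost their calls in QGP-1 cells.

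With each library left out, the members lower and higher numbered 4 to 7 and 1 to 1 in QGP-1 cells, 6 to 6 and 0 to 0 in BON-1 cells, 0 to 2 and 1 to 2 for the difference between the lines, and 5 to 6 and 2 to 2 between vehicle groups. The log2 differences in ratio were 0.05 to 0.11 and 0.11 to 0.25 for SHMT2 to SHMT1, and 0.25 to 0.38 and 0.25 to 0.43 for MTHFD2 to MTHFD1, in the QGP-1 and the BON-1 line.

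Libraries of the same replicate number had correlated deviations of -0.16, 0.29 and 0.23 in QGP-1 and -0.09, -0.10 and 0.20 in BON-1 cells, so the numbers were not taken as pairs, and not every library correlated best with its own number. With the replicate number as a block, 7 members were lower and 1 higher in QGP-1 cells, with 6 and 0 for the BON-1 line, and 2 lower and 1 higher for the difference between the lines, where PSAT1 (0.35, adjusted p = 0.0503) and SLC1A4 (-0.36, adjusted p = 0.062) lost their calls. No other call of these 31 genes changed. The ratio differences under the block were 0.09, 0.19, 0.33 and 0.35.

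Over all genes the lower and higher calls were 2676 and 2610 (QGP-1), 2677 and 2488 (BON-1), 1315 and 1461 for the difference between the lines and 6022 and 6245 between vehicle groups. Above an absolute log2 fold change of 1 they were 360 and 183, 447 and 272, 293 and 386, and 2930 and 3498. On the TPM scale they were 89 and 9149, 336 and 33, 7934 and 40, and 647 and 9794. Without the 3 short RNAs they were 659 and 6491 in QGP-1 cells and 5446 and 496 for the difference between the lines, with 1175 higher in BON-1 cells and 3727 lower between vehicle groups.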
